A study of Mus musculus with 11 samples.

Results

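Cytochrome P450 enzymes of families 1 to 4 were examined in newborn mouse liver in which Notch signalling had been switched on. The members were all array probes whose gene name in the files begins with Cyp, then a single digit from 1 to 4 and a letter. This rule took 82 of 41174 distinct probes, standing for 56 of 21337 gene names. Of these, 70 probes and 52 genes gave enough signal to be tested, and Cyp2c38, Cyp2c66, Cyp2d13 and Cyp2w1 did not. The 52 genes were 9 of Cyp2c, 6 of Cyp3a, 5 each of Cyp2j and Cyp4f, 4 each of Cyp2b, Cyp2d and Cyp4a, 3 of Cyp2a, 2 of Cyp1a, and 1 each of Cyp1b, Cyp2e, Cyp2f, Cyp2g, Cyp2r, Cyp2s, Cyp2u, Cyp4b, Cyp4v and Cyp4x.

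RNA of 11 newborn liver samples of hybrid 129 x C57BL/6 background was amplified, labelled with Cy3 and hybridised to Agilent whole mouse genome arrays, 1 sample to an array. Mutants were double transgenic AFP-Cre/Rosa26-lsl-NICD pups, in which Cre driven by the alpha-fetoprotein promoter removes a stop cassette and frees NICD, the active intracellular part of Notch. Controls were mono transgenic Rosa26-lsl-NICD pups, so every animal carried the Rosa26-lsl-NICD allele, and no group carried Cre alone: effects of Cre and of NICD cannot be told apart. The groups were 3 mutants and 3 controls at day 2 after birth, and 3 mutants and 2 controls on the day of birth (day 0). The labels do not say how many litters or dams the pups came from, so the p-values cover the spread among these samples, which may be technical.

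Cytochrome P450s are heme enzymes of the endoplasmic reticulum that oxidise drugs, steroids, bile acids, fatty acids and pollutants, with electrons passed on from Por and Cyb5a. In the liver they are made in hepatocytes, many of them mainly around the central vein. Several subfamilies are under the control of ligand-activated factors: Cyp1a of the aryl hydrocarbon receptor Ahr, Cyp2b of Nr1i3 (CAR), Cyp3a of Nr1i2 (PXR), and Cyp4a of Ppara. Many liver P450s are low in the fetus and come up around birth, while Cyp3a16 is known as a form of fetal and newborn liver.

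Family members are close relatives, and an array probe of 60 bases may read more than the gene it is named for. Of the 52 probes read, 41 list 1 gene in the files' accession column, 8 list several and 3 list none that the RefSeq table names. Below are the probes of 3 genes that list several: the Cyp2d9 probe lists Cyp2d9, Cyp2d22 and Cyp2d34, that of Cyp3a11 lists Cyp3a11, Cyp3a41a and Cyp3a44, and that of Cyp4a12b lists Cyp4a12a and Cyp4a12b. They show which stretch of the message each value rests on, and lie in build mm8 on chromosome 15 (82284166 to 82284225), chromosome 5 (146164716 to 146166583, across an intron) and chromosome 4 (114931989 to 114932923, across an intron).
Cyp2d9: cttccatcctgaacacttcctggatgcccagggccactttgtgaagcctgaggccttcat
Cyp3a11: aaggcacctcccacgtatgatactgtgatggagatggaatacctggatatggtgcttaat
Cyp4a12b: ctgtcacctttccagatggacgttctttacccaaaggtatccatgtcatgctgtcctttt
The other probes that list several genes are those of Cyp2a4, Cyp2b9, Cyp2b13, Cyp2c40 and Cyp4a12. Values of these 8 genes may include signal of the relatives they list. Among 3291 pairs of probes of different member genes, 3 pairs were alike in at least 80% of 20 or more overlapping bases: Cyp2a4 with Cyp2a5, Cyp2c40 with Cyp2c54, and Cyp2j11 with Cyp2j13.

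Values are given in log2 units, as the processed signal of a probe relative to the 75th percentile of its own array, so a difference of 1 is a 2-fold change. Levels of different probes are not comparable with each other. A gene is called where its p-value in limma's test, adjusted by the Benjamini-Hochberg method over all 15954 genes tested, is under 0.05, and differences are given with their standard error. On these arrays 62.8% to 68.2% of spots were well above background. Replicate 3 of the day 0 mutants stood apart: it was lower than the other 10 by 2-fold or more in 470 genes, 11 of them P450s, and higher by as much in 605, 1 of them a P450. Sex, read from sex-linked genes, coincided with genotype at birth, where the 3 mutants read as female and the 2 controls as male; at day 2 each genotype had 2 females and 1 male.

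Over both days with equal weight, 26 of the 52 P450 genes were lower in mutants than in controls and 0 were higher, where 6.69% of all genes tested were lower and 8.66% higher. The median P450 difference was -1.11, beside -0.05 over all genes. At an unadjusted p under 0.05, 30 were lower and 2 higher in the same limma fit; no other tool was run. The falls took in all 6 Cyp3a genes, all 4 Cyp4a, all 4 Cyp2d, 7 of 9 Cyp2c, and Cyp1a2, Cyp2a12, Cyp2e1, Cyp2g1 and Cyp4b1. No member of Cyp2b, Cyp2j or Cyp4f was called. The count was 13 with sex as a covariate and 14 without control day 0 replicate 2. The calls of Cyp2a12, Cyp2c37, Cyp2c44, Cyp2d10, Cyp2d22, Cyp2g1, Cyp3a11, Cyp3a16, Cyp3a41, Cyp3a44 and Cyp4a14 held in every other fit run on them. Each of the other 15 was lost in at least 1 other fit. Cyp3a25 was called in 7 of 22 other fits, Cyp2e1 in 9 of 22, Cyp2c70 in 10 of 22, and Cyp2c40 and Cyp4a12 in 11 of 22. For Cyp2c54 it was 11 of 21. Within slides, each of which held 1 array of each group except that the third held no day 0 control, the median P450 difference between mutant and control was -0.94, -1.47 and -0.53 at day 2 and -0.70 and -1.09 at day 0.

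**Figure D1:**
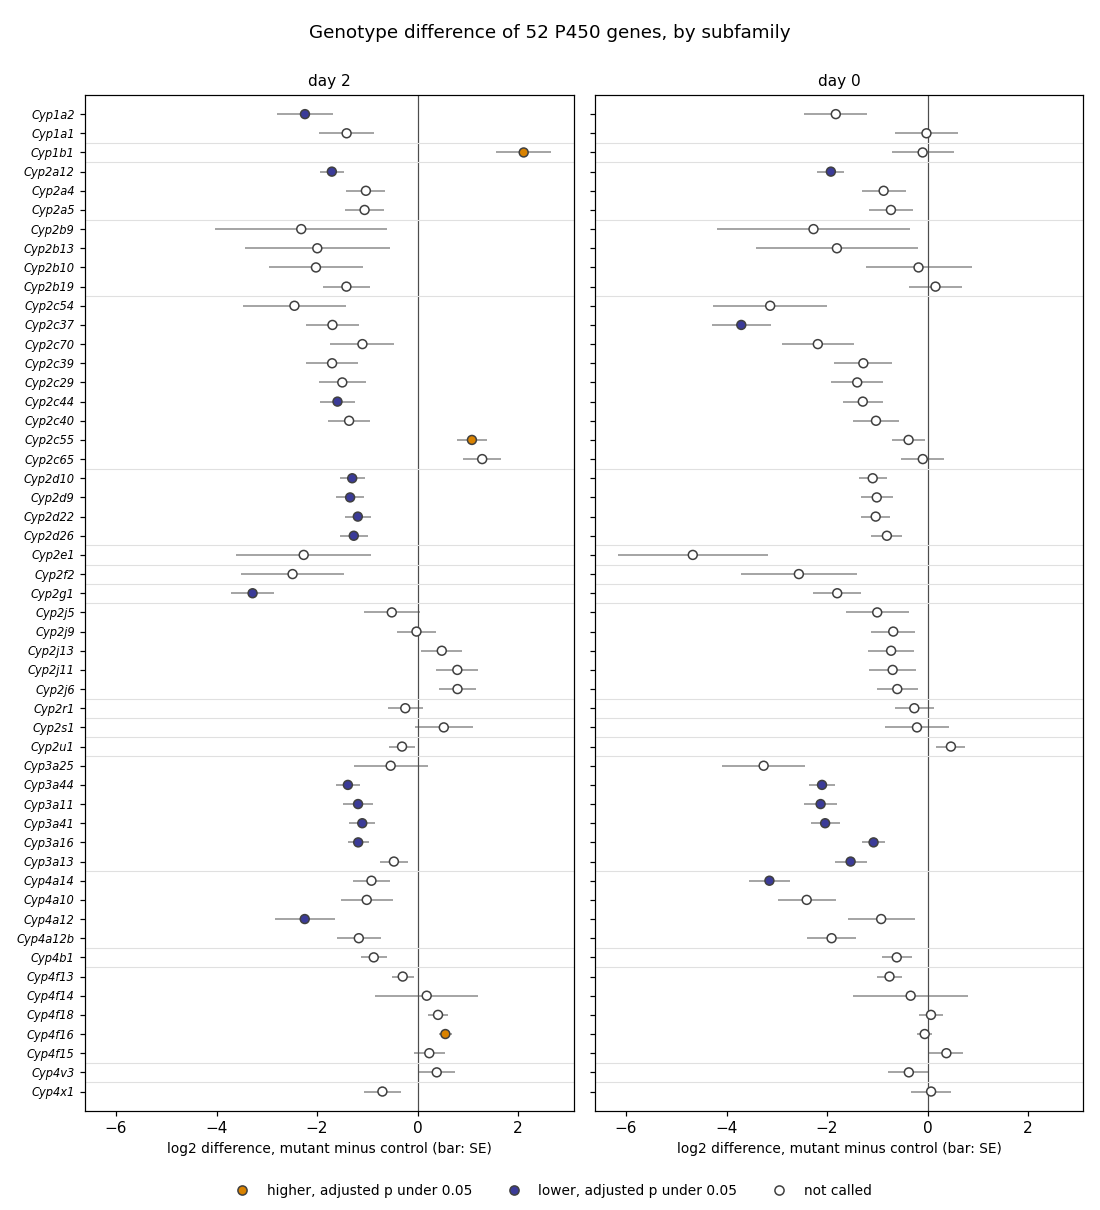
Mutant minus control log2 difference of each of the 52 P450 genes tested at day 2 (left) and day 0 (right), with its standard error, grouped by subfamily; filled points have an adjusted p under 0.05. At day 2, 13 genes were called lower and 3 higher, and at day 0, 8 were lower and 0 higher.

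In bulk liver, fewer hepatocytes and less P450 RNA per hepatocyte cannot be told apart. Of 12 hepatocyte markers tested, 5 were lower in mutants over both days and 0 higher, with a median difference of -0.55. Their summed signal, relative to the 75th percentile, was 2081 to 2251 in day 2 mutants against 2874 to 3793 in day 2 controls, and 3073 to 3969 in day 0 mutants against 3556 and 3793 in day 0 controls. It is dominated by bright probes, and the albumin probe was saturated on all 11 arrays. All 8 cholangiocyte markers were higher in mutants, and their sum was 235 to 280 in day 2 mutants against 10.4 to 18.1 in day 2 controls, and 101 to 349 in day 0 mutants against 23.5 and 26.4 in day 0 controls. The part of these shifts in the P450 differences was not tested.

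All 6 Cyp3a genes fell, by 2- to 3.73-fold over both days. Cyp3a11, the main drug and steroid hydroxylase of this subfamily in mouse liver, read 5.26, 4.85 and 5.62 in day 2 mutants, against 6.31, 6.52 and 6.46 in day 2 controls. At birth it read 2.81, 2.56 and 1.65 in mutants, against 4.61 and 4.34 in controls. All mutant arrays lay below all control arrays of their day, and the difference over both days was -1.66 ± 0.23 (3.15-fold lower, adjusted p = 0.00136).

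Cyp3a16, the form of the fetal and newborn liver, was at 4.09, 3.87 and 4.53 in day 2 mutants, against 5.16, 5.49 and 5.39 in day 2 controls. On the day of birth the mutants read 3.54, 3.20 and 3.46, against 4.68 and 4.27 in the controls. The groups did not overlap on either day, and the fall was 2.19-fold (adjusted p = 0.00143). Its difference at birth (-1.08 ± 0.23, adjusted p = 0.0497) was not called with the slide as a block (adjusted p = 0.0605).

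Cyp3a41 and Cyp3a44, which are female-predominant in the adult mouse, fell over both days by 2.97-fold and 3.35-fold (adjusted p = 0.000798 and 0.000264). Cyp3a41 read 6.10, 5.85 and 6.50 in day 2 mutants against 7.13, 7.28 and 7.35 in day 2 controls, and 4.03, 3.80 and 3.05 in day 0 mutants against 5.70 and 5.63 in day 0 controls. Cyp3a44 read 4.68, 4.31 and 5.0 in day 2 mutants against 6.0, 6.12 and 6.04 in day 2 controls, and 1.92, 1.66 and 1.07 in day 0 mutants against 3.74 and 3.57 in day 0 controls. At birth both were lower in the mutants, which read as female, than in the controls, which read as male, so sex and genotype cannot be told apart there. Cyp3a13 fell 2-fold and Cyp3a25 3.73-fold over both days; the call of Cyp3a25 (adjusted p = 0.0468) was lost with the slide as a block (adjusted p = 0.0766).

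The 6 Cyp3a genes lie on chromosome 5, and 4 of them have similar upstream sequences. The 250 bases before the RefSeq start (GRCm38.p6, minus strand) are shown for these 4, which were called lower in mutants on both days and higher at day 2 in both genotypes. For Cyp3a16 the call at birth held in 7 of 23 other fits, and the rise in controls in 9 of 23. Capitals mark CAAAGTCC, a motif of the type bound by the liver factor Hnf4a. The sequences are chr5:145879855-145880104, chr5:145469724-145469973, chr5:145720137-145720386 and chr5:145805875-145806124, in the order printed.
Cyp3a11: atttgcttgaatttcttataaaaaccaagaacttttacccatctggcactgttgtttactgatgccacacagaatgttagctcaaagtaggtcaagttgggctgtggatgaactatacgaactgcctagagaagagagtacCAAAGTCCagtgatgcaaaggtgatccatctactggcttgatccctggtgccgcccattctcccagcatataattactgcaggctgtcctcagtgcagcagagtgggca
Cyp3a16: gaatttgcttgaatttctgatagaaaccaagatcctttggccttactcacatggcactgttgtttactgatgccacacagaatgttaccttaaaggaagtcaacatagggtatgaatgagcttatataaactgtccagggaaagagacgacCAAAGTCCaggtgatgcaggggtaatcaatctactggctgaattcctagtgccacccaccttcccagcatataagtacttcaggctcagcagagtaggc
Cyp3a41: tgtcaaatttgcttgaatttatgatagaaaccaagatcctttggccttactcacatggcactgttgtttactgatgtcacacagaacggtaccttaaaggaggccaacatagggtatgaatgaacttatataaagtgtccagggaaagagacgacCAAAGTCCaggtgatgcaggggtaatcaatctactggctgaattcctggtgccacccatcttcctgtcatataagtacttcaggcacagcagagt
Cyp3a44: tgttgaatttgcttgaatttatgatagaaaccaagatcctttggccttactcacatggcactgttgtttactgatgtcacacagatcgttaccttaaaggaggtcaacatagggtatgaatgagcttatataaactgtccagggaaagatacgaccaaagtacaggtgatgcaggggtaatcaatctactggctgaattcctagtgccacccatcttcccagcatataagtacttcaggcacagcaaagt
Aligned, the Cyp3a16, Cyp3a41 and Cyp3a44 sequences were 92.4% to 94.4% identical, and Cyp3a11 was 76.0% to 79.6% identical to each of them. The exact 8 letters stand 109, 99 and 95 bases before the start of Cyp3a11, Cyp3a16 and Cyp3a41, and the Cyp3a44 sequence does not hold them. RefSeq gave an upstream sequence for 42 of the 52 genes. CAAAGTCC, on either strand, was in 9 of these 42 (21.4%) and in 1.22% of the 27025 genes with such a sequence. Besides the Cyp3a genes, it was upstream of Cyp2a4, Cyp2a5, Cyp2c40, Cyp2c65, Cyp2c70 and Cyp4f18. Of the 18 genes lower in mutants with a sequence, 5 held it. TTGCNNAA, of the type bound by Cebpa, was in 23.8% of the members and 9.55% of all genes. TATAAA, the letters of a TATA box, was in 42.9% of the members and 13.0% of all genes, and AGGTCA, a nuclear receptor half-site, in 26.2% and 13.8%. TGGGAA, a motif of the type bound by the Notch partner Rbpj, was in 31.0% and 21.5%. GCGTG, the core bound by Ahr, was in 19% and 28.2%. Of the 18 genes lower in mutants with a sequence, TTGCNNAA was in 2, TATAAA in 12, AGGTCA in 6, TGGGAA in 4 and GCGTG in 0. These are matches of letters, searched on both strands, and near-copies such as Cyp2a4 and Cyp2a5 (98% identical upstream) count more than once.

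Cyp4a genes, fatty acid omega-hydroxylases and classic targets of Ppara, fell over both days by 2.91- to 4.09-fold. Cyp4a14 was at 6.87, 7.34 and 7.40 in day 2 mutants, against 8.07, 8.28 and 8.01 in day 2 controls. Mutants at birth read 2.69, 1.55 and 1.46, against 4.52 and 5.57 in controls. The groups did not overlap on either day; the difference was -0.92 ± 0.36 at day 2 (adjusted p = 0.122) and -3.15 ± 0.41 at day 0 (adjusted p = 0.00576).

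Cyp4a10 read 3.03, 2.82 and 3.80 in day 2 mutants, against 4.46, 4.45 and 3.77 in day 2 controls, where mutant replicate 3 was above control replicate 3. At day 0 it read -0.31, -0.75 and -1.73 in mutants, against 0.56 and 2.40 in controls. Over both days it fell 3.27-fold (adjusted p = 0.0175). The probe of Cyp4a12b, which also lists Cyp4a12a, read 1.67, 1.92 and 2.43 in day 2 mutants against 2.97, 3.43 and 3.13 in day 2 controls, and -1.11, -1.26 and -2.36 in day 0 mutants against -0.41 and 1.08 in day 0 controls. It fell 2.91-fold over both days (adjusted p = 0.0123), with no overlap on either day. The Cyp4a12 probe lists the same pair of genes and fell 3-fold (adjusted p = 0.0425).

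Cyp2d, the subfamily of human CYP2D6, fell in a narrow range, from 2.06-fold for Cyp2d26 to 2.29-fold for Cyp2d10. Cyp2d26 read 7.08, 6.43 and 6.92 in day 2 mutants against 8.02, 8.22 and 8.0 in day 2 controls, and 6.98, 6.73 and 7.82 in day 0 mutants against 7.96 and 8.02 in day 0 controls. Day 0 mutant replicate 3 was the highest mutant array and close to the controls. All 4 Cyp2d genes were lower at day 2 (adjusted p = 0.00802 to 0.0145). At day 0 none was called, with adjusted p = 0.0908 to 0.261; without mutant replicate 3 all 4 were called (adjusted p = 0.00964 to 0.0242). A second probe of Cyp2d22 differed in sign at day 2.

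In Cyp2c, whose mouse members include epoxygenases of arachidonic acid, 7 of 9 genes fell. Cyp2c37 was at 1.75, 0.95 and 2.32 in day 2 mutants, against 3.82, 3.76 and 2.52 in day 2 controls. At birth the mutants read -1.07, -1.31 and -2.39, against 1.54 and 2.69 in controls. Mutants lay below controls on both days, with a fall of 6.5-fold over both (adjusted p = 0.00193) and a difference of -3.71 ± 0.58 at birth (adjusted p = 0.0138). Cyp2c44 fell 2.72-fold (adjusted p = 0.0066).

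Cyp2c40, the brightest probe of the subfamily, read 6.25, 5.29 and 6.04 in day 2 mutants against 7.08, 7.22 and 7.37 in day 2 controls, and 7.37, 7.51 and 5.92 in day 0 mutants against 7.73 and 8.19 in day 0 controls. Its fall of 2.29-fold (adjusted p = 0.0297), like those of Cyp2c29 and Cyp2c54, was lost with the slide as a block (adjusted p = 0.065, 0.0504 and 0.0575). Cyp2c70, which makes the muricholic acids of mouse bile, fell 3.12-fold (adjusted p = 0.0471), and Cyp2c39 2.81-fold. These calls held in 10 and 14 of 22 other fits. Cyp2c55, a member known from extrahepatic tissues, went the other way at day 2. Cyp2c55 read -4.63, -3.77 and -3.62 in day 2 mutants, against -5.35, -5.01 and -4.89 in day 2 controls, and was 2.11-fold higher (adjusted p = 0.0355), with no overlap; this call was lost with 3 other scalings or filters and without any 1 of 5 of the 6 day 2 arrays. Cyp2c65 differed by 1.28 ± 0.38 at day 2 (adjusted p = 0.0505).

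Cyp1a2, which metabolises caffeine and aromatic amines, was at -0.96, -2.17 and -0.60 in day 2 mutants, against 1.42, 1.23 and 0.34 in day 2 controls. At birth it read -6.65, -6.65 and -7.36 in mutants, where no array was well above background, against -4.07 and -6.05 in controls, where 1 of 2 was. The mutants were 4.73-fold lower at day 2 with no overlap (adjusted p = 0.0266). Cyp1a1 read -4.87, -3.81 and -3.46 in day 2 mutants against -3.17, -2.55 and -2.18 in day 2 controls, a difference of -1.41 ± 0.55 (adjusted p = 0.118), and was not well above background on any day 0 array. Cyp1b1, a relative found mainly outside the liver, was 4.31-fold higher in day 2 mutants, at -3.74, -3.38 and -4.04, against -5.65, -6.26 and -5.58 in day 2 controls (adjusted p = 0.0305). It was not called with normexp background correction or quantile normalization, or without any 1 of the 6 day 2 arrays.

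Cyp2a12, which rehydroxylates bile acids, had the smallest p-value of all members. It read 3.43, 2.65 and 3.11 in day 2 mutants, against 4.68, 5.09 and 4.54 in day 2 controls. At day 0 the mutants were at 1.42, 0.89 and 1.29, against 3.06 and 3.18 in controls. The groups were far apart on both days, and the fall was 3.52-fold (adjusted p = 0.00021). Cyp2a5, a coumarin hydroxylase, read 3.79, 3.79 and 3.39 in day 2 mutants against 4.05, 4.80 and 5.28 in day 2 controls, and 2.91, 3.94 and 4.11 in day 0 mutants against 4.71 and 4.06 in day 0 controls. The day 0 groups overlapped, and the difference of -0.89 ± 0.29 over both days was not called (adjusted p = 0.069); its near copy Cyp2a4 differed by -0.95 ± 0.29 (adjusted p = 0.0566). Cyp2g1, known from olfactory mucosa, read -4.08, -5.62 and -4.51 in day 2 mutants against -1.38, -1.21 and -1.78 in day 2 controls, and -4.58, -4.40 and -5.56 in day 0 mutants against -3.34 and -2.77 in day 0 controls. It was 9.73-fold lower at day 2 (adjusted p = 0.00106).

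Cyp2e1, which oxidises ethanol and acetone, and Cyp2f2, which activates naphthalene, had a wide spread among the day 0 mutants. Cyp2e1 read 4.12, 2.70 and 4.92 in day 2 mutants, against 6.34, 6.39 and 5.81 in day 2 controls. At birth it read 2.10, 1.21 and -4.08 in mutants, against 4.40 and 4.42 in controls. Every mutant was below every control of its day, and mutant replicate 3 at birth was by far the lowest. The fall over both days was 11.1-fold (adjusted p = 0.0463). It was not called with the slide as a block (adjusted p = 0.0812), and without mutant day 0 replicate 3 the difference was -2.51 (adjusted p = 0.00335). Cyp2f2 read 4.62, 2.83 and 4.55 in day 2 mutants against 6.51, 6.86 and 6.09 in day 2 controls, and 3.36, 3.27 and -0.96 in day 0 mutants against 4.07 and 4.83 in day 0 controls. Here too the groups did not overlap. The difference of -2.52 ± 0.77 over both days (adjusted p = 0.0565) was called, at -1.81, without mutant day 0 replicate 3 (adjusted p = 0.00982).

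The Cyp2b genes varied widely within groups. Cyp2b9, whose probe also lists Cyp2b10, read 0.66, -1.13 and 1.75 in day 2 mutants, against 3.16, 3.22 and 1.83 in day 2 controls. At birth it read -3.75, -7.37 and 1.03 in mutants, against -1.15 and -1.04 in controls, so the mutants lay on both sides of the controls. The difference over both days was -2.29 ± 1.28 (adjusted p = 0.274), and -3.39 (adjusted p = 0.0158) without mutant day 0 replicate 3. Cyp2b13 likewise went to -2.82 without that array (adjusted p = 0.0171), against -1.90 ± 1.08 with it (adjusted p = 0.281). Cyp2b10, the marker gene of Nr1i3 activity, read -3.31, -5.09 and -1.87 in day 2 mutants against -0.72, -1.13 and -2.35 in day 2 controls, and -5.52, -6.74 and -3.41 in day 0 mutants against -4.87 and -5.22 in day 0 controls. Its groups overlapped on both days, and its difference over both was -1.10 ± 0.71 (adjusted p = 0.346). Cyp2b19 differed by -0.63 ± 0.35 over both days (adjusted p = 0.273). On the array of mutant replicate 3 at birth, Cyp2b9, Cyp2b13, Cyp2b10 and the 4 Cyp2d genes were the highest of the 3 mutants, while Cyp2e1, Cyp2f2, Cyp2c54 and Cyp3a25 were the lowest.

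Cyp2j and Cyp4f held no gene called over both days. Cyp2j5, an arachidonic acid epoxygenase, read 3.43, 2.73 and 3.47 in day 2 mutants against 3.79, 3.79 and 3.59 in day 2 controls, and 3.11, 1.87 and 0.47 in day 0 mutants against 2.38 and 3.26 in day 0 controls. Its difference over both days was -0.76 ± 0.42 (adjusted p = 0.27). The 5 Cyp2j differences ran from -0.51 to 0.79 at day 2 and from -1.0 to -0.60 at day 0. Cyp4f15 read 3.16, 3.30 and 3.47 in day 2 mutants against 3.44, 3.23 and 2.56 in day 2 controls, and 3.51, 3.07 and 2.41 in day 0 mutants against 2.46 and 2.78 in day 0 controls, a difference of 0.30 ± 0.23 over both days (adjusted p = 0.428). Of the other Cyp4f genes, relatives of the leukotriene B4 hydroxylases, Cyp4f16 was 1.47-fold higher in mutants at day 2 (adjusted p = 0.0202), a call lost with median scaling and without control replicate 1, control replicate 2 or mutant replicate 2 of that day. Cyp4f13, Cyp4f14 and Cyp4f18 differed by -0.53 ± 0.16, -0.08 ± 0.77 and 0.24 ± 0.16 over both days (adjusted p = 0.058, 0.961 and 0.362). Cyp4b1, a P450 best known from lung, fell 1.67-fold over both days (adjusted p = 0.0333). Cyp2r1, a vitamin D hydroxylase, Cyp2s1, Cyp2u1, Cyp4v3 and Cyp4x1 were not called, with adjusted p = 0.492 to 0.996.

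**Figure D2:**
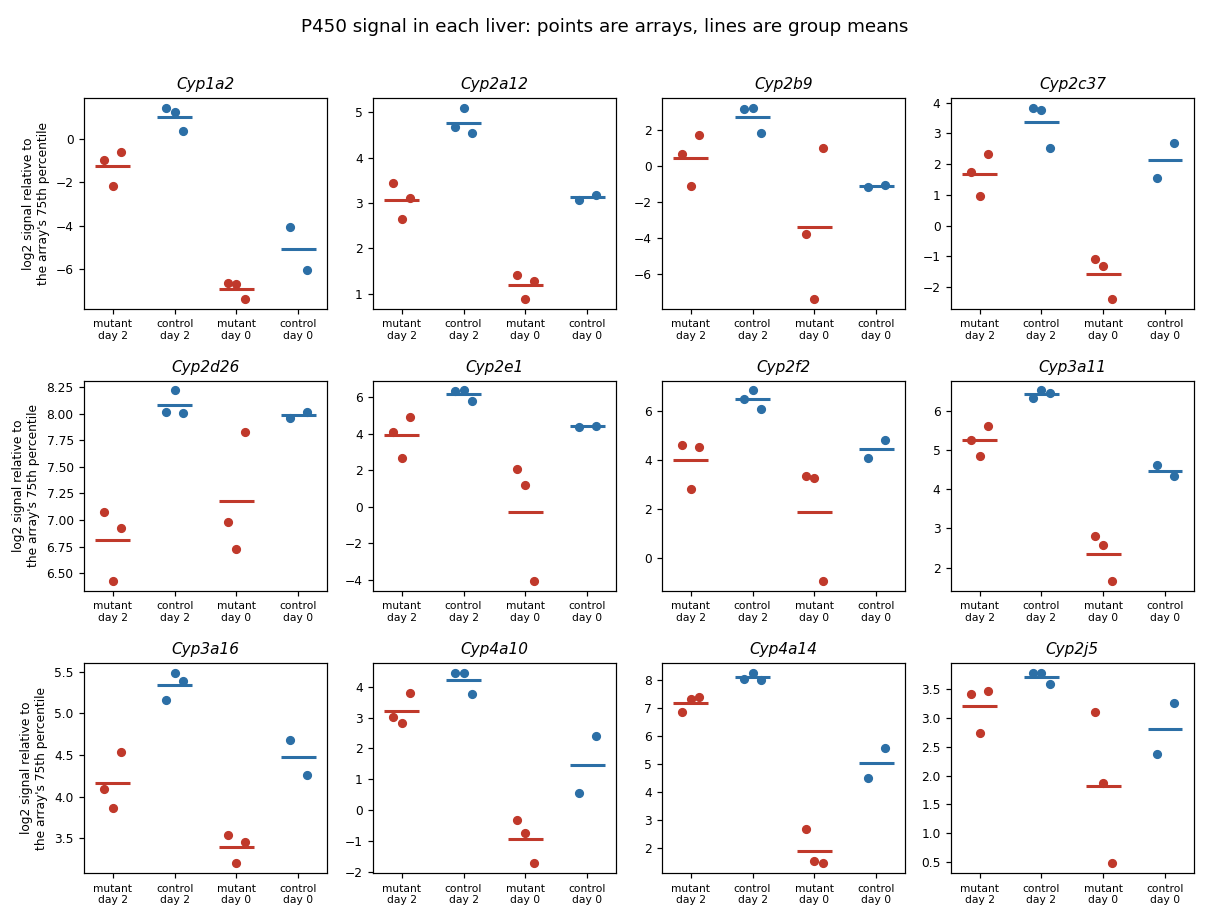
Signal of 12 P450 genes on every array, in log2 units relative to the array's 75th percentile, with mutants left of controls at day 2 and then at day 0, and a line at each group mean. Cyp3a11, Cyp4a14 and Cyp2a12 show mutants below controls on both days, while Cyp2e1 and Cyp2f2 show 1 day 0 mutant far from the other 2. The day 0 mutants of Cyp2b9 all lie far from each other.

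Taken by day, 13 P450s were lower and 3 higher in mutants at day 2, where 6.35% of all genes tested were lower and 9.46% higher. At day 0, 8 were lower and 0 higher, where 0.633% of all genes were lower and 1.52% higher, and an unadjusted p under 0.05 was reached by 23 P450s, all lower. Cyp2a12, Cyp3a11, Cyp3a16, Cyp3a41 and Cyp3a44 were lower on both days. Mutants lay wholly below controls for 28 P450s at day 2 and for 28 at day 0, where that held for 24.6% and 15% of all genes. They lay wholly above for 7 at day 2 and 1 at day 0, where that held for 20.8% and 16.7%. The 8 calls at day 0 rest on few arrays: without control replicate 2 there were 0, with sex as a covariate 0, and without mutant replicate 3 there were 14. As sex coincided with genotype at day 0, the fit with sex as a covariate cannot separate them on the day 0 arrays. At day 2 the lower count was 5 when mutant replicate 2 of that day was left out and 22 when mutant day 0 replicate 3 was. Leaving out single arrays put the higher count at day 2 between 0 and 6. The day 2 calls of Cyp2a12, Cyp2d10, Cyp2g1, Cyp3a16 and Cyp3a44 held in all the fits run.

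The change over the first 2 days of life was compared next. In mutants, 19 P450s were higher at day 2 than at day 0 and 1 lower, where 9.03% of all genes rose and 11% fell. In controls, 12 P450s were higher and 0 lower, where 5.1% of all genes rose and 5.44% fell; at an unadjusted p under 0.05, 17 were higher and 2 lower. The count in controls was 6 with sex as a covariate, 5 without control day 0 replicate 1 and 19 without mutant day 0 replicate 3. The median change of the 52 genes was 1.30 in mutants and 0.58 in controls, beside medians near 0 over all genes. Within slides 1 and 2, the median change was 0.70 and 0.66 in mutants and 0.86 and 0.63 in controls. It was 1.27 in mutants on slide 3, which held mutant day 0 replicate 3 and no day 0 control. Kept to probes well above background on all arrays, 42 genes were left, and 17 rose in mutants and 10 in controls. Cyp1a1, Cyp2c55 and Cyp2c65 were not well above background on any day 0 array, so day 2 alone brought them into the test. In the main fit, all 12 genes that rose in controls also rose in mutants. A further 7 were called in mutants alone: Cyp2c37, Cyp2c65, Cyp2j6, Cyp2j9, Cyp2j13, Cyp3a13 and Cyp3a25. Of these, Cyp2j13 (adjusted p = 0.0499) was called in 5 of 23 other fits, Cyp2j6 in 14 of 23 and Cyp2c65 in 13 of 22, and the change of Cyp2c65 turned to -0.0515 with normexp background correction (adjusted p = 0.834). The only gene that fell was Cyp4b1 in mutants, by 1.82-fold (adjusted p = 0.0474), a call lost without any 1 of 10 of the 11 arrays. Day 2 lay wholly above day 0 for 22 P450s in mutants and 25 in controls, where that held for 20.8% and 28.7% of all genes. It lay wholly below for 2 in mutants and 8 in controls, where that held for 22.2% and 28%.

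Cyp1a2 rose at least 28.1-fold in mutants (adjusted p = 0.000787), where the day 0 signal was not well above background and the bound is set by the dimmest signal above background on those arrays. In controls it rose 66.6-fold (adjusted p = 0.00181), a value that rests on 2 day 0 arrays of which 1 was not well above background. By the same kind of bound Cyp1a1 was at least 4.03-fold higher at day 2 in mutants (adjusted p = 0.00439) and at least 10.5-fold in controls (adjusted p = 0.00293). Cyp2c55 was at least 4.14-fold higher in mutants and at least 1.92-fold in controls. Cyp2c65 was at least 1.63-fold higher in mutants. Cyp4a14 rose 39.5-fold in mutants and 8.43-fold in controls, and Cyp4a10 17.7-fold in mutants and 6.74-fold in controls. At birth all 3 mutants lay below both controls in Cyp4a10 and in Cyp4a14. Cyp3a25 rose 46-fold in mutants, a change of 5.52 ± 0.73 (adjusted p = 0.00255) that was 4.48 without mutant day 0 replicate 3 (adjusted p = 0.000424), and in controls its change was 2.80 ± 0.82 (adjusted p = 0.0591).

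The Cyp4a12b probe rose 12-fold in mutants and 7.18-fold in controls. The Cyp4a12 probe, which lists the same genes, was not called. Its change was -0.39 ± 0.60 in mutants (adjusted p = 0.655) and 0.93 ± 0.67 in controls (adjusted p = 0.39). In Cyp3a, all 6 genes rose in mutants and 4 in controls: Cyp3a11, Cyp3a16, Cyp3a41 and Cyp3a44. Cyp3a44 rose 8.66-fold in mutants and 5.28-fold in controls, but its second probe gave the opposite sign for this difference between genotypes. Cyp3a11 rose 7.47-fold in mutants and 3.88-fold in controls. Cyp3a16, the newborn form, had the smallest rise of the 4, 1.7-fold in mutants and 1.83-fold in controls. The rise of Cyp3a16 in controls was lost with the slide as a block (adjusted p = 0.0745), as were those of Cyp2j6 and Cyp2j13 in mutants (adjusted p = 0.0519 and 0.0659). Cyp2u1, a fatty acid hydroxylase, read -2.42, -2.82 and -2.53 in day 2 mutants against -4.39, -3.74 and -3.87 in day 0 mutants, and -2.79, -1.85 and -2.20 in day 2 controls against -4.48 and -4.45 in day 0 controls. It rose 2.65-fold in mutants and 4.54-fold in controls, with no overlap. None of the 4 Cyp2d genes was called over these days in either genotype. Of the Cyp2c genes, Cyp2c40 changed by -1.08 ± 0.41 in mutants (adjusted p = 0.0905) and -0.74 ± 0.46 in controls (adjusted p = 0.318).

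**Figure D3:**
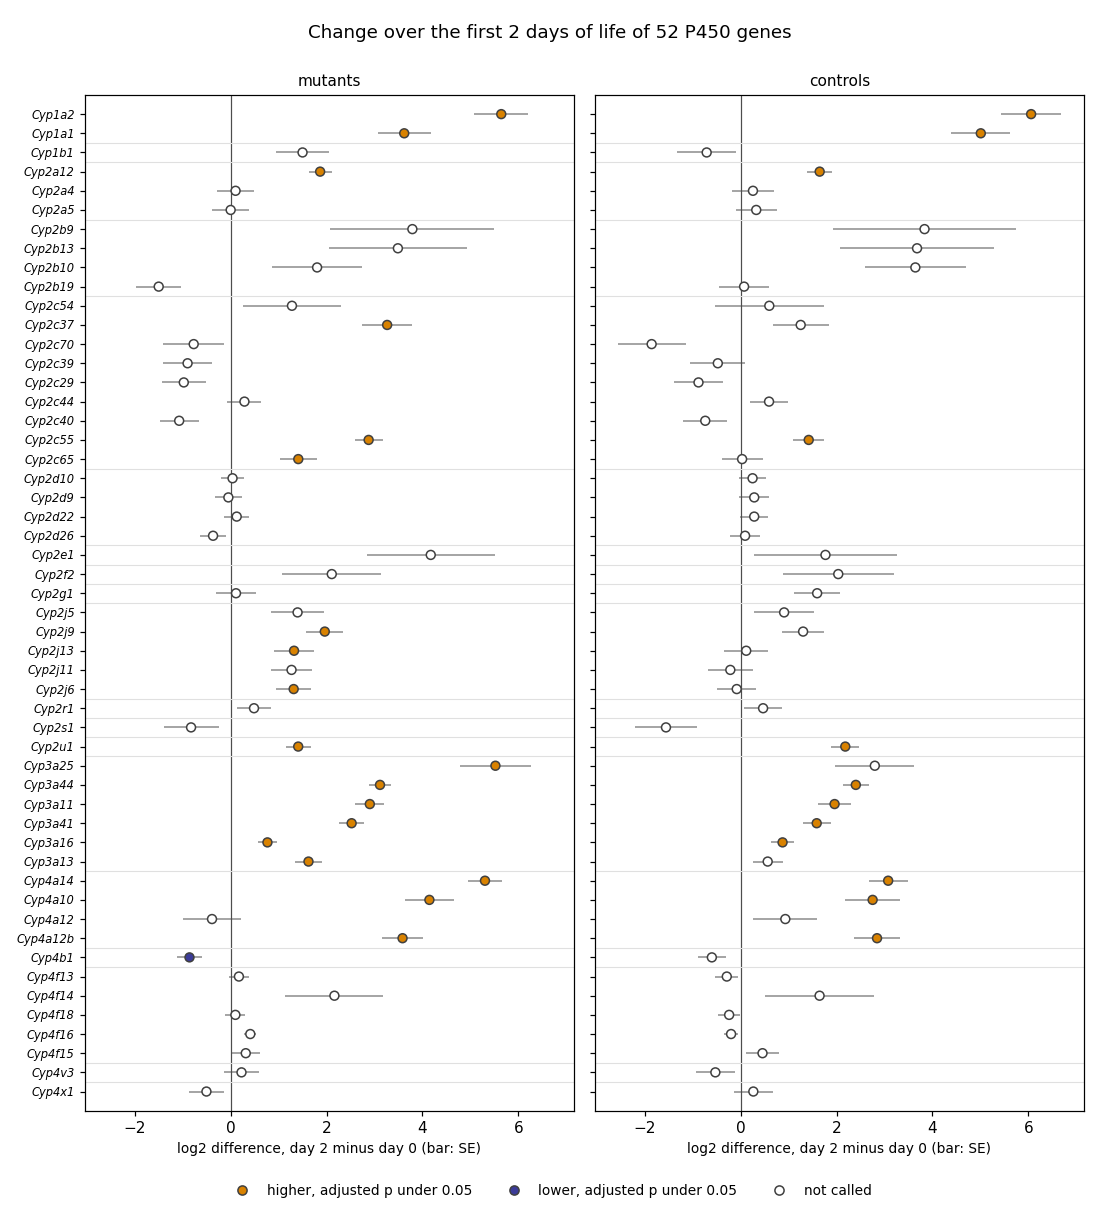
Day 2 minus day 0 log2 difference of each of the 52 P450 genes in mutants (left) and controls (right), with its standard error; filled points have an adjusted p under 0.05. In mutants 19 genes were called higher and 1 lower, and in controls 12 were higher and 0 lower.

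Whether the change from birth differed between genotypes was tested directly. No P450 was called by limma (0 higher, 0 lower), where 0.232% of all genes were called higher and 0.0376% lower. At an unadjusted p under 0.05, 11 P450s had a more positive change in mutants and 1, Cyp2g1, a less positive one. Over all genes, 7.82% and 6.37% did. Not all of the 11 rose in controls: there Cyp1b1 changed by -0.71 ± 0.61 and Cyp2j11 by -0.22 ± 0.47. The smallest p-value was that of Cyp4a14, whose change was 2.23 ± 0.55 larger in mutants (adjusted p = 0.147). For Cyp3a11 the change was 0.94 ± 0.45 larger in mutants (adjusted p = 0.382). For Cyp1a2 it was -0.41 ± 0.84 (adjusted p = 0.872). No loss of the rise in mutants was thus called. Over all 52 genes, whatever their p, the difference was positive in 29 and negative in 23. A set of 9 genes was lower in mutants over both days and higher at day 2 in both genotypes. Of these, the day 2 mutants' Cyp1a2, Cyp3a11, Cyp3a41, Cyp3a44, Cyp4a10, Cyp4a12b and Cyp4a14 had passed the day 0 controls on every array. For Cyp2a12 and Cyp3a16, the rest of that set, not every day 2 mutant lay above both day 0 controls. The Cyp2d26 signal of every day 2 mutant lay below both day 0 controls.

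**Figure D4:**
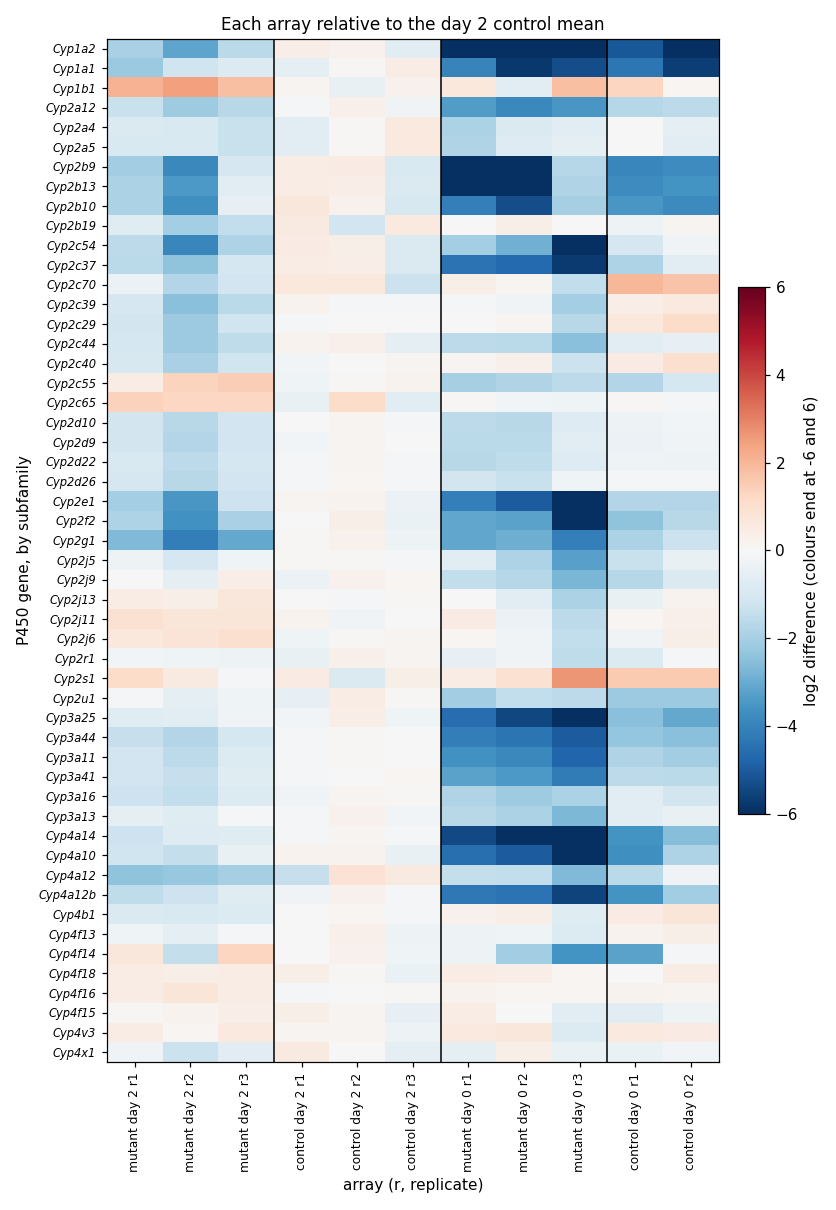
Log2 signal of the 52 P450 genes on each of the 11 arrays relative to the mean of the day 2 controls, grouped by subfamily, with day 2 on the left, and mutants left of controls within each day. Cyp1a2, Cyp4a14 and Cyp4a10 are far lower at day 0, the Cyp2d genes differ by genotype and little by day, and mutant day 0 replicate 3 differs from the other 2 in Cyp2b, Cyp2d, Cyp2e1 and Cyp2f2.

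Other parts of the P450 system were counted in the same fit. Among 10 electron donors and related genes, Cyb5a and Por, the reductase that serves microsomal P450s, were lower in mutants over both days, by 1.55-fold and 1.64-fold (adjusted p = 0.00569 and 0.00642), and 0 were higher. Of 13 genes of heme supply and breakdown, 6 were lower and 0 higher. Among the 6 were Cpox, lower by 1.67-fold, Uros by 1.72-fold and Alad by 1.55-fold (adjusted p = 0.01, 0.0292 and 0.0362). Erythroid cells make heme too: 2 of 7 erythroid markers were lower over both days and 0 higher, their summed signal was 25.9 to 41.8 in day 2 mutants against 75.1 to 116 in day 2 controls and 108 to 130 in day 0 mutants against 141 and 156 in day 0 controls, and its part in the heme genes was not tested.

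Of 34 regulators, 7 were lower and 4 higher in mutants. Nr1i3, the receptor behind Cyp2b10, was 4.11-fold lower (adjusted p = 0.000725), Ppara 1.71-fold lower (adjusted p = 0.0135) and Cebpa 1.56-fold lower (adjusted p = 0.0128). Nr1i2, the receptor behind Cyp3a, differed by -0.49 ± 0.17 (adjusted p = 0.0817), Hnf4a by -0.57 ± 0.19 (adjusted p = 0.0791) and Ahr by -0.02 ± 0.19 (adjusted p = 0.968). Of 16 targets of Ppara, which include Cyp4a10 and Cyp4a14, 6 were lower and 0 higher in mutants, among them Fabp1, a fatty acid binding protein, by 1.48-fold (adjusted p = 0.00467). At day 2 against day 0, 10 of these 16 rose in mutants and 6 in controls.

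Of 14 perivenous genes, which mark the hepatocytes around the central vein where Cyp1a2 and Cyp2e1 are made, 3 were lower and 1 higher in mutants. Tbx3 was 2.58-fold, Glul 1.59-fold and Rgn 2.62-fold lower (adjusted p = 0.0023, 0.0277 and 0.04997), and Gstm3 1.59-fold higher (adjusted p = 0.0283). Of 14 P450 genes of families above 4, Cyp8b1, a bile acid 12-hydroxylase, was 2.5-fold lower and Tbxas1, thromboxane synthase, 1.55-fold lower (adjusted p = 0.0485 and 0.0311), and 0 were higher. The median difference over both days was -0.06 for the electron donors, -0.62 for heme supply and breakdown, and -0.24 for the regulators. It was -0.47 for the Ppara targets, -0.08 for the perivenous genes and -0.35 for the higher P450 families. For the 52 members it was -1.11, and for all genes -0.05.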

How the data were processed

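The deposited array files give spot intensity. Per the file headers, Agilent's Feature Extraction 9.5.3.1 made the processed signal, which is background-subtracted and carries no scaling from array to array. A deposited table of log2 values, from RMA per the submitters' processing notes and with settings not given in the sources used here, served as an alternative. Here log2 processed signal minus the array's 75th percentile over non-control spots was used, control and outlier spots were dropped, and repeat spots averaged. A probe was tested if all arrays of any group had it well above background (27101 of 41174), and a gene was read from its probe with the highest mean. Symbols came from the RefSeq table of GRCm38.p6, and probe positions are the files', on mm8. P450 names are those of the files: RefSeq calls Cyp2c44 Cyp2c23, Cyp3a41 Cyp3a41a and Cyp4a12 Cyp4a12a.

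Genes were fitted with limma 3.58.1 (R 4.3.3), with 1 coefficient for each of the 4 groups, all 11 arrays, 7 residual and 2.38 prior degrees of freedom, 2-sided tests and Benjamini-Hochberg adjustment; the steps were tested on simulated data. Of 15 P450s with several tested probes, all had 1 sign over both days. Signs differed between probes for Cyp4f16 at day 0 and Cyp2d22 at day 2. They differed for Cyp2a4, Cyp2d22 and Cyp2d9 in the day change of mutants, and for Cyp2a4, Cyp2d22 and Cyp4f16 in that of controls. In the test of a difference between genotypes in the day change, they differed for Cyp2a4, Cyp2c40, Cyp2d22 and Cyp3a44. Replicate numbers are slides. Across genes, deviations from the group mean of same-numbered day 2 mutants and controls correlated at 0.29, 0.23 and 0.26. Other day 2 pairs were at -0.21 to -0.06, but deviations in a group sum to 0, so these values are not independent of the first. Same-numbered day 0 mutants and controls were at 0.06 and 0.09. The main fit left the slide out. Each group had 1 position on every slide, so position and group cannot be told apart. Alternatives were other scalings, background corrections and filters, the deposited log2 table, the slide as a block, sex as a covariate, other rules for genes with several probes, fits of the compared groups alone, and each array left out in turn. The effect of sex could be estimated from the day 2 arrays alone, as the day 0 mutants all read as female and the day 0 controls as male. The number of arrays limits precision.

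The members and the lists were chosen with earlier results of these data known. Values by array are given for the called members with the smallest p over both days and in controls between days, up to 8 each, the brightest member of each of 11 subfamilies, and 9 genes whatever their values; those higher in mutants at day 2 were added after their values were seen. The upstream motifs were chosen likewise. Up to 4 genes of a list are named, and a few that this rule takes are not reported here.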

Additional observations from a re-analysis of the deposited data

How the results depend on the processing

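Of the 26 P450s lower in mutants over both days, 11 were called under every alternative run: Cyp2a12, Cyp2c37, Cyp2c44, Cyp2d10, Cyp2d22, Cyp2g1, Cyp3a11, Cyp3a16, Cyp3a41, Cyp3a44 and Cyp4a14. With sex as a covariate the lower count was 13, at day 0 it was 0, and 6 rose in controls. With only the groups compared in the fit, 21 were lower and 6 higher at day 2, 0 lower at day 0, and 19 rose and 1 fell in controls. With normexp correction, 22 were lower and 1 higher at day 2 and 2 fell with time in mutants; the change of Cyp2c65 in mutants turned to -0.0515 (adjusted p = 0.834); the cause was not tested. Cyp4b1's fall in mutants was lost, leaving 0, with median scaling or with no filter on dim probes. Kept to probes well above background on all arrays, 1 was higher in mutants than in controls at day 2, as dim probes then drop out. Median scaling put the median of all genes at 0.18 for the day change in mutants, 0.18 in controls and -0.14 for day 2 mutants against controls. The slide as a block (replicate block) left 21 lower over both days, 6 lower at day 0, 14 lower and 3 higher at day 2, and 17 higher in mutants and 11 in controls between days; calls it changed and not named with their gene are those of Cyp3a13 at day 0 (adjusted p = 0.111) and Cyp4b1 at day 2 (adjusted p = 0.0487). A fit with that block and without mutant day 0 replicate 3, chosen after seeing the data, gave 21 lower and 6 higher at day 2, 4 falling in mutants and 1 in controls.

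Leaving out 1 array at a time gave 14 (without control day 0 replicate 2) to 29 (without mutant day 0 replicate 3) lower and 0 to 1 higher over both days. At day 0 it gave 0 to 14 lower, with the same arrays at the ends, and at day 2, 5 (without mutant replicate 2) to 22 lower and 0 to 6 higher, both highest without mutant day 0 replicate 3. Between days, 15 to 22 were higher and 0 to 4 lower in mutants, and 5 (without control day 0 replicate 1) to 19 (without mutant day 0 replicate 3) higher and 0 to 2 lower in controls. The test of a difference between genotypes in the day change gave 0 in all of these. A lone day 0 control is assumed to vary like the other groups.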
